A study of Mus musculus with 22 samples.

Results

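NanoString probes were used to measure immune genes in total RNA of whole EMT-6 tumours, mammary carcinomas that grew in the fat pad of the gland in BALB/c mice. The comparison is between 4 mice titled NHS-muIL12 2 µg, which received that single agent and no avelumab, and 4 mice titled isotype control. The groups were chosen by these titles and account for 8 of the 22 libraries, each from 1 mouse. NHS-muIL12 is a fusion of murine interleukin-12 to an antibody that binds the DNA and histones exposed in necrotic tissue. Treated mice received 2 µg of it under the skin on day 0, when tumours were near 100 mm3, and tumours were taken on day 6. The control mice are labelled with no agent and doses of 0 µg of both NHS-muIL12 and avelumab. Both groups are BALB/c mice with the same tumour line, and no age is given in the sources used here. For direct comparison, 3 mice with 10 µg NHS-muIL12 alone and 4 mice with 2 µg NHS-muIL12 plus 200 µg avelumab, an antibody against PD-L1, were also used. The design text counts 4 mice at 10 µg, of which 1 was not analysed here. All tumours come from 1 cell line.

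Interleukin-12 is a cytokine of myeloid cells that binds a receptor of the chains Il12rb1 and Il12rb2 on natural killer cells and activated T cells. Through the kinase pair Jak2 and Tyk2 it activates Stat4, which drives transcription of Ifng, the gene of interferon-gamma. Interferon-gamma then acts on most nucleated cells, including macrophages and carcinoma cells. Its targets include Irf1, the class II transactivator Ciita, class II antigen presentation genes, immunoproteasome subunits, guanylate-binding proteins and the chemokines Cxcl9, Cxcl10 and Cxcl11.

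The table gives 770 genes as a linear signal, whose background correction and scaling the sources used here do not give, and 20 housekeeping genes were set aside, which left 750 to test. Summed signal ran from 302582 to 354956 in the 4 isotype libraries and from 319293 to 347573 in the 4 treated libraries. Isotype replicates 1 and 2 and treated replicate 3 stood apart in dim genes, with a lower quartile of signal of 37.5, 42.1 and 50.2 against 3.06 to 18.4 in the other 5 libraries. Between an isotype and a treated library Pearson's correlation of log2 values over 750 genes ran from 0.81 to 0.96, against 0.82 to 0.95 between isotype libraries. The groups overlapped in the summed signal of the defining markers of T cells, NK cells, B cells, macrophages, neutrophils, mast cells, dendritic cells, endothelium and epithelial tumour cells. The macrophage markers Cd68, Csf1r, Emr1 and Cd163 together were at 882 to 1705 in isotype and 1395 to 1716 in treated tumours. Epcam, Cdh1 and Muc1, markers of the carcinoma cells, were present at a summed signal of 126 to 172 in isotype and 97.7 to 225 in treated tumours.

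At 2 µg several class II antigen presentation and Fc receptor genes had a higher signal in every treated mouse than in any isotype mouse. So did 2 of 22 macrophage genes, which is near the share of all genes (43 of 750, 5.73%). No single gene passed the test. In limma, fitted on log2(signal + 1) over all 22 libraries, 0 of 750 genes (0%) had a Benjamini-Hochberg adjusted p under 0.05. The smallest adjusted p was 0.0657, for Pou2f2. With libraries weighted by their spread (arrayWeights in limma) 90 genes passed, 55 of them higher. The weights were 0.93, 4.26, 0.43 and 0.55 for treated replicates 1 to 4, so that fit leaned on treated replicate 2. For isotype replicates 1 to 4 they were 1.66, 1.17, 0.25 and 0.57. Of the 90 genes, 25 were among the 43 higher separated genes described below, which come from the same mice. At an unadjusted p under 0.05 there were 46 higher genes (6.13% of those tested) and 13 lower genes (1.73%). Over all 750 genes 364 were higher and 382 lower, with a median log2 difference of -0.01. Every treated mouse lay above every isotype mouse in 43 genes (5.73%), and every treated mouse lay below every isotype mouse in 2 genes, Fas and Mmp9 (0.267%). The median fold of these 43 genes was 1.54, within a range of 1.11 to 10.1, and 16 folds were above 2.

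The split of separated genes depended on how the libraries were scaled. It was 43 higher and 2 lower as deposited, 36 and 5 after centring on the housekeeping mean, 29 and 24 after quantile normalization, and 11 and 12 after centring each library on its median. Of the 43 genes, 36, 20 and 8 were still separated in the same direction under these 3 scalings. Housekeeping centring shifted each library little, since the housekeeping mean ran only from 8.79 to 8.90 in log2 terms over the 8 libraries. The median difference over all genes moved by -0.06 at most in log2 terms under the 3 scalings. The library medians moved more, from 65.0 to 111 in signal, and treated replicate 3, with high dim-gene signal, had the highest. Without that library and isotype replicates 1 and 2, which leaves 2 isotype and 3 treated mice and makes separation easier by construction, 99 genes were separated upwards and 52 downwards.

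**Figure D1:**
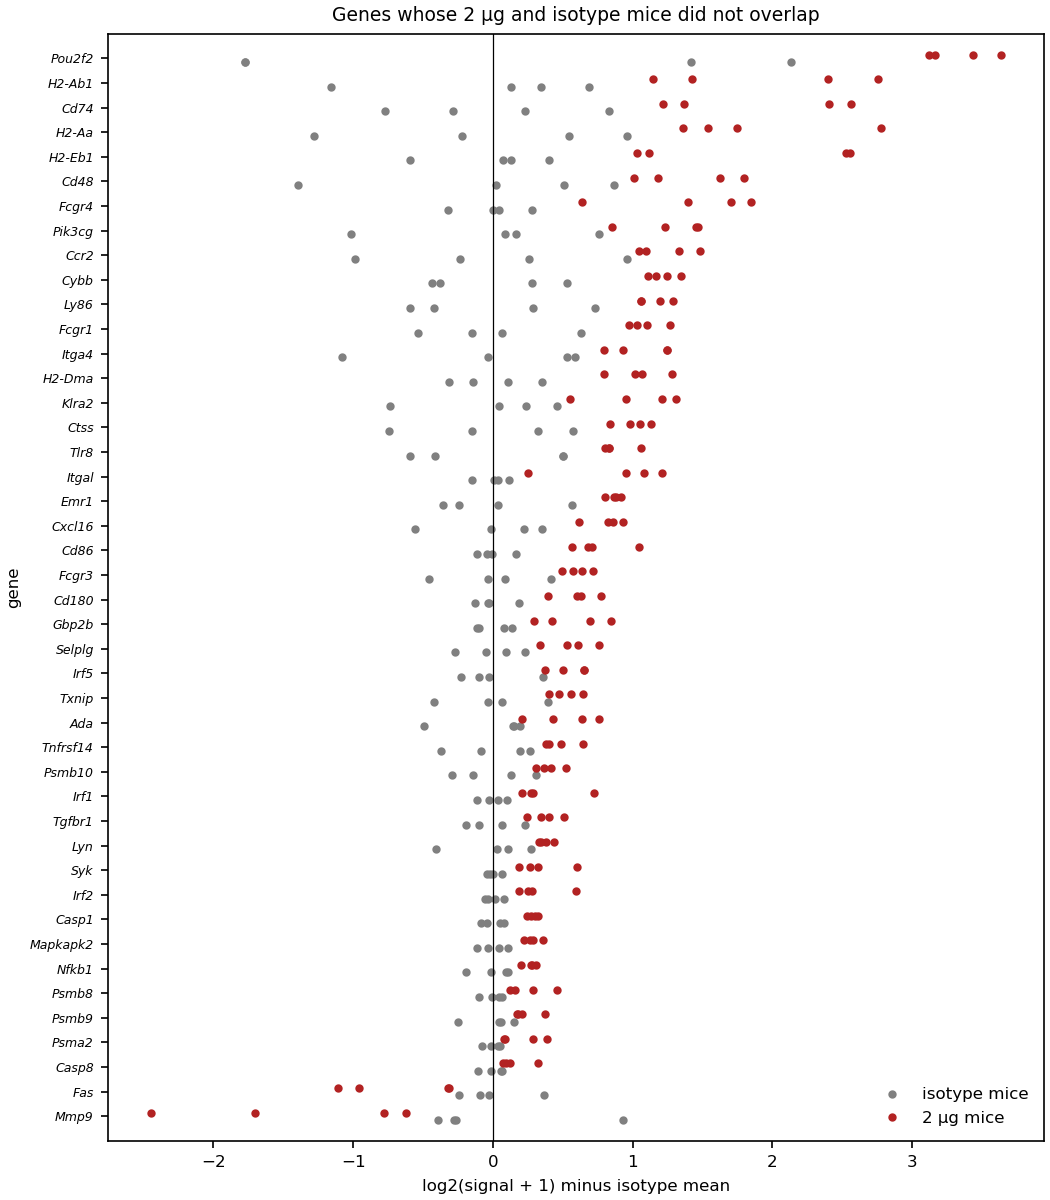
Each row is 1 gene whose 4 treated (2 µg) and 4 isotype mice did not overlap; points are single mice and the horizontal axis is log2(signal + 1) minus the isotype mean of that gene. The 42 of the 43 higher genes that are plotted are ordered by their difference, with Pou2f2 and class II genes at the top, and Fas and Mmp9 are the 2 lower genes; 0 of these genes passed limma at an adjusted p under 0.05.

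The order of the mice within the groups varied among the 43 genes. Treated replicate 1 was the highest of the 4 in 22 of them, replicate 2 in 11, replicate 3 in 9 and replicate 4 in 1. Replicate 4 was the lowest treated mouse in 18. Among controls, isotype replicate 2 was the lowest mouse in 31 of the 43 and isotype replicate 4 the highest in 22. By the mean signal over all 22 libraries, dim genes carried little of the pattern, since 41 of the 43 had a mean of at least 50. That mean includes the treated groups, and Cd48 and Itga4 had isotype means of only 41.0 and 42.3. Among the 450 genes this bright the 95% interval of the log2 difference had a median half-width of 0.51, against 1.95 among the 300 dimmer genes.

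Class II genes had the highest median difference of the 26 gene lists. These genes encode the molecules that show peptides to CD4+ T cells and the proteins that load them. Of 10 class II genes measured, 9 were higher and 1, H2-Ob, was lower (-0.80 ± 0.82 in log2 terms), with a median log2 difference of 1.66 against -0.01 over all genes. None passed the test, 6 were higher at an unadjusted p under 0.05 (6.13% of all genes), and 5 were separated upwards (5.73% of all genes). More cells that express a gene and more of its RNA per cell cannot be told apart in whole tumours, here or in the groups of genes that follow.

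Cd74, the invariant chain that guides class II molecules through the cell, had a signal of 574, 409, 1244 and 822 in isotype replicates 1 to 4 and of 4138, 3714, 1626 and 1808 in treated replicates 1 to 4. The groups did not overlap, and treated replicates 1 and 2 were more than 2-fold above replicates 3 and 4. The log2 difference was 1.89 ± 0.50 (SE), with a limma adjusted p of 0.324. H2-Ab1, the beta chain of the A molecule, was at 129, 52.3, 190.2 and 149.5 in isotype and 802, 625, 262 and 319 in treated mice. It repeated the pattern of Cd74, with treated replicates 1 and 2 high, and its difference was 1.93 ± 0.54 (limma adjusted p = 0.324). H2-Eb1, the beta chain of the E molecule, was at 129, 77.9, 156 and 124 in isotype and 701, 685, 243 and 258 in treated mice. Its difference was 1.81 ± 0.56, again without overlap and with the same 2 treated mice high.

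H2-Aa, the alpha chain of the A molecule, was at 324, 156, 738 and 553 in isotype and 1275, 2602, 976 and 1102 in treated mice. Here treated replicate 2 alone was high and the lowest treated mouse stood above the highest control, with a difference of 1.86 ± 0.55. The gene listed as H2-Ea-ps, now H2-Ea, the alpha chain of the E molecule, had the largest difference of the list (2.32 ± 0.68, limma adjusted p = 0.324). It was at 182, 51.2, 506 and 308 in isotype and 1848, 1409, 473 and 746 in treated mice, and treated replicate 3 lay below isotype replicate 3. H2-Dma, a chain of the chaperone that exchanges class II peptides, was at 134, 99.97, 112 and 159 in isotype and 304, 252, 262 and 217 in treated mice. Its treated mice were tighter than those of the chains above, and its difference was 1.04 ± 0.35. Ciita, the transactivator, was dim, at 21.1, 24.4, 0 and 2.63 in isotype and 24.6, 13.7, 24.6 and 13.4 in treated mice. Its groups overlapped, because isotype replicates 1 and 2 reached the treated level, and its difference was 1.52 ± 0.97, with a 95% interval of -0.52 to 3.56.

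The summed signal of the 10 class II genes was 1649, 1028, 2971 and 2180 in isotype and 9225, 9421, 4063 and 4503 in treated replicates 1 to 4. The lowest treated mouse was thus above the highest control. Under the other scalings 9 of the 10 genes were higher each time, but the number separated was 5 after housekeeping centring, 7 after quantile normalization and 1 after median centring. Without the 3 libraries of high dim-gene signal the log2 difference was 1.58 for Cd74, 1.83 for H2-Eb1, 1.27 for H2-Aa and 1.68 for H2-Ab1, and that of the dim gene Ciita was 3.20. Probes for class II chains may also bind near-identical relatives, which was not tested.

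**Figure D2:**
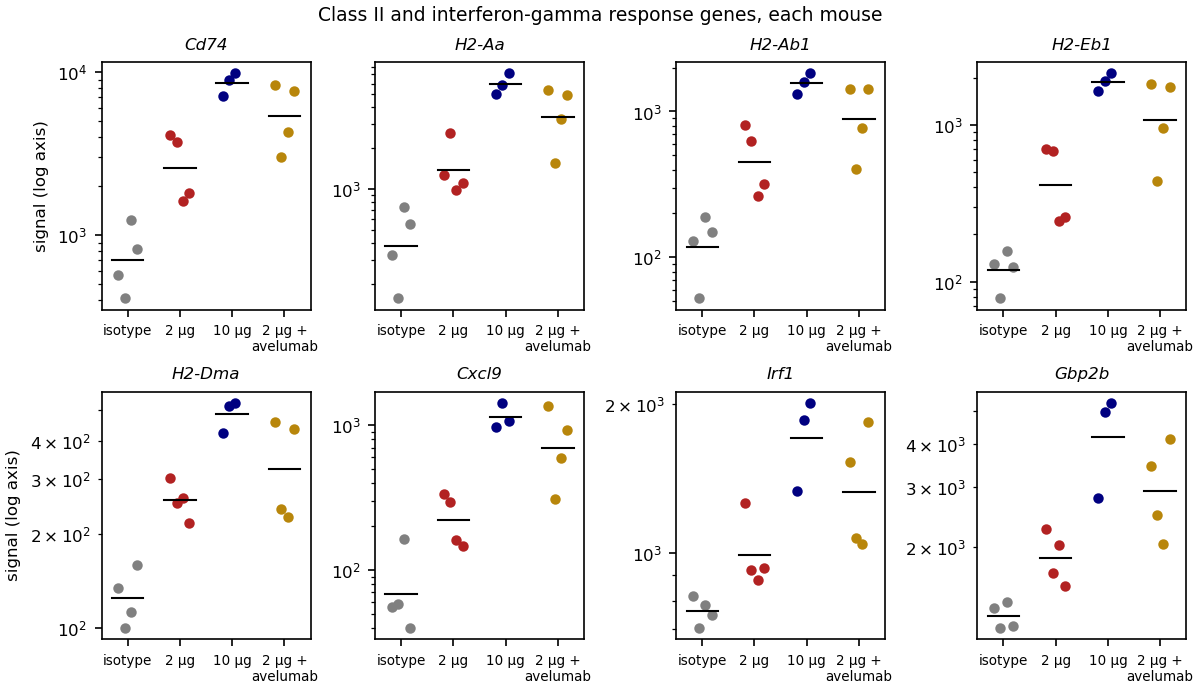
Signal of 8 genes in single mice on log axes, for isotype (n = 4), 2 µg NHS-muIL12 (n = 4), 10 µg NHS-muIL12 (n = 3) and 2 µg NHS-muIL12 plus avelumab (n = 4); points are mice and lines the mean of log2(signal + 1) turned back to signal. Gbp2b, Irf1, Cd74, H2-Dma, H2-Aa, H2-Eb1 and H2-Ab1 do not overlap between isotype and 2 µg, while Cxcl9 does.

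Promoters of class II genes carry a conserved module with an X box and a Y box, and the Y box is a reversed CCAAT box bound by NF-Y. The bases just before the start are shown for 2 chains that were separated, together with those of the chemokine gene Cxcl9, to set the module beside the genes it belongs to. They are the 120 bases before the annotated start, 5′ to 3′ on the gene's strand, from RefSeq on build GRCm38.p6. Capitals mark the letters CTGATTGG (Y box) and, in the 2 class II genes, GCAACT (core of the X box), searched on both strands.
H2-Aa: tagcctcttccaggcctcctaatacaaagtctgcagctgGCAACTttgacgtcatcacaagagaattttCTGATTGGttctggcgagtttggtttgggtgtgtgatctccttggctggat
H2-Eb1: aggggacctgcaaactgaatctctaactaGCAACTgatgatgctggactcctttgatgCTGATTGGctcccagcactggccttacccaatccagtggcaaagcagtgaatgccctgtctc
Cxcl9: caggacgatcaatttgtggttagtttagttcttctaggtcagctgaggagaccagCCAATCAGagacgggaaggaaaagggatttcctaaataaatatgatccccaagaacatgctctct
The windows lie on the minus strand at chr17:34287824-34287943 for H2-Aa, on the plus strand at chr17:34305747-34305866 for H2-Eb1 and on the minus strand at chr5:92328080-92328199 for Cxcl9. In H2-Aa the X box core begins 81 bases and the Y box 51 bases before the start, and in H2-Eb1 they begin 91 and 62 bases before it. Cxcl9 holds the letters of the Y box on the opposite strand, beginning 65 bases before the start, and those of the X box core beginning 230 bases before it, outside the bases printed. These letters occurred within 250 bases before the start in 3.83% of 32851 promoter windows for CTGATTGG and in 9.01% for GCAACT. Of the 750 genes tested 555 had a window, and 29 of them held CTGATTGG. The matches describe the sequence, and binding was not measured.

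Genes of the interferon-gamma response were mostly higher by small amounts. Of 20 measured, 18 were higher and 2, Ido1 and Nos2, lower, with a median log2 difference of 0.30 (all genes, -0.01), 0 past the test, 1 higher at an unadjusted p under 0.05, and 4 separated upwards. Over all genes these last shares were 6.13% and 5.73%, so the single gene at that p is near the share of all genes. Cxcl9, a chemokine for activated T cells and NK cells, was the gene with that p. It was at 55.5, 58.1, 165 and 39.9 in isotype and 336, 297, 162 and 147 in treated mice, and isotype replicate 3 lay inside the treated range. Its log2 difference was 1.69 ± 0.53, with a limma adjusted p of 0.324. Cxcl10, a chemokine for the same receptor, was at 141, 133, 258 and 204 in isotype and 365, 279, 281 and 212 in treated mice, which overlap, with a difference of 0.65 ± 0.36 that was 0.28 without the 3 libraries of high dim-gene signal. Cxcl11 differed by 0.35 ± 0.33 and overlapped as well. Of the 4 separated genes, 2, Psmb8 and Psmb9, are also on the class I list described below. The number separated on the interferon-gamma list was 3 after housekeeping centring, 1 after quantile normalization and 0 after median centring.

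Irf1, a transcription factor induced by interferon-gamma, was at 819, 706, 783 and 747 in isotype and 1262, 923, 882 and 931 in treated mice. The groups did not overlap, with 3 treated mice just above the controls and replicate 1 further up, and the difference was 0.37 ± 0.25 (limma adjusted p = 0.753). Gbp2b, an interferon-induced guanylate-binding protein, was separated too, at 1160.0 to 1377 in isotype and 1536 to 2249 in treated mice, while Gbp5, of the same family, overlapped at 89.5 to 185 and 131 to 202. Cd274, the gene of PD-L1, was at 206, 215, 225 and 129 in isotype and 346, 192, 263 and 159 in treated mice, with a difference of 0.28 ± 0.47. Treated replicates 1 and 3 lay above every control, and the other 2 did not. Irf2 and Irf5, 2 further interferon regulatory factors, were separated, by 0.33 ± 0.15 and 0.54 ± 0.22. Irf3, Irf7 and Irf8 of the same family differed by 0.15, 0.03 and 0.33 and overlapped, as did Irf4. Nos2, which makes nitric oxide in activated macrophages, was at 30.03 to 34.2 in isotype and 20.6 to 74.6 in treated mice, where treated replicate 3 alone was high.

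Class I genes and their peptide-loading partners differed less than class II genes. Of 17 measured, 11 were higher and 6 lower, with a median log2 difference of 0.21, 0 past the test and 3 separated upwards (5.73% of all genes). The 3 were the immunoproteasome subunits, which cut peptides for class I molecules. Psmb8 was at 2160.3, 1959, 2193 and 2083 in isotype and 2876, 2341, 2278 and 2558 in treated mice, a difference of 0.26 ± 0.15 that is small but without overlap. Psmb9 (0.23 ± 0.19) and Psmb10 (0.40 ± 0.16) were separated by narrow gaps and differed by 0.14 and 0.20 without the 3 libraries of high dim-gene signal. On the list, 1 gene of the list was separated after housekeeping centring and 0 after quantile normalization or median centring. The class I heavy chain gene H2-K1 overlapped between groups, at 699.7 to 913 in isotype and 897 to 1001 in treated mice, and Tap1, a subunit of the peptide transporter, at 429 to 564 and 549.9 to 730.0.

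All 5 genes on the Fc receptor list were higher, with a median log2 difference of 0.61. Of these, 3 were separated (5.73% of all genes) without passing the test. The Fc receptor genes Fcer1a and Fcer2a, which are on other lists, differed by -0.34 and -0.18 and overlapped. The Fcgr receptors bind antibody on macrophages, monocytes and NK cells, and Fcer1g is a signalling chain. Fcgr4, which in mice binds IgG2 antibodies, was at 121, 96.5, 146 and 124 in isotype and 438, 396, 319.9 and 188 in treated mice. Treated replicate 4 was the lowest and still above all controls, and the difference was 1.40 ± 0.46 (limma adjusted p = 0.324). Fcgr1, the high-affinity receptor, was at 198, 130.2, 171 and 294 in isotype and 388, 457, 408 and 373 in treated mice. Its treated mice were close to each other, with a difference of 1.09 ± 0.35. Fcgr3, an activating low-affinity receptor, was separated by 0.61 ± 0.27.

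Macrophage genes were higher in 20 of 22 cases, with a median log2 difference of 0.34, 0 past the test, 4 higher at an unadjusted p under 0.05 and 2 separated upwards. Over all genes 364 of 750 were higher, 6.13% at that p and 5.73% separated, so the 2 separated macrophage genes are near the share of all genes. Cybb, the catalytic subunit of the phagocyte oxidase, was at 123, 128, 202 and 240.1 in isotype and 374, 423, 396 and 359.7 in treated mice. The 4 treated mice lay close together, and the difference was 1.22 ± 0.35 (limma adjusted p = 0.324). Emr1, the gene now named Adgre1 that encodes the macrophage antigen F4/80, was at 229, 174, 189 and 331 in isotype and 409, 423, 414 and 392 in treated mice. The treated mice again formed a tight set above isotype replicate 4, the highest control, with a difference of 0.87 ± 0.29. C1qa and C1qb, complement genes of tissue macrophages, differed by 0.71 ± 0.34 and 0.76 ± 0.34 and overlapped. Without the 3 libraries of high dim-gene signal the differences were 0.80 for Cybb, 0.23 for C1qa and 0.29 for C1qb.

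Other macrophage genes overlapped between the groups. Cd68, a lysosomal protein of macrophages, was at 495, 411, 851 and 725 in isotype and 721, 597, 595 and 727 in treated mice, so that the treated mice lay within the isotype range. Csf1r, the receptor for colony-stimulating factor 1, differed by 0.19 ± 0.31 and overlapped at 198 to 431 and 209 to 514. Without the libraries of high dim-gene signal these 2 differences were -0.21 and -0.29. Cd163, a scavenger receptor of resident macrophages, was at 155, 98.8, 85.7 and 218 in isotype and 55.8, 61.5, 87.5 and 84.3 in treated mice, with a difference of -0.87 ± 0.67. Treated replicates 1, 2 and 4 lay below every control, and treated replicate 3 just inside the control range. Arg1, the arginase of alternatively activated macrophages, differed by 0.07 ± 0.29 with overlap.

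Some further myeloid genes outside that list were separated as well, though the lists that hold Ccr2, Cd86 and Tlr8 showed no common direction. Ly86, the partner of the receptor Cd180, was at 94.8, 83.7, 155 and 212 in isotype and 266, 311, 293 and 266 in treated mice, with a difference of 1.15 ± 0.36. Ccr2, the receptor that brings monocytes out of the bone marrow, was at 316, 133, 224 and 515 in isotype and 565, 740.3, 545 and 665 in treated mice. Isotype replicate 4 came close to the treated range, and the difference was 1.24 ± 0.45 (limma adjusted p = 0.375). Ctss, a protease that degrades the invariant chain, was at 749, 496, 1042 and 1242 in isotype and 1492, 1825, 1727 and 1645 in treated mice, with a difference of 1.00 ± 0.37 and a narrow spread among treated mice. Tlr8, an RNA sensor, and Cd86, a costimulatory molecule, were separated by 0.88 ± 0.38 and 0.75 ± 0.27. Without the 3 libraries of high dim-gene signal the differences were 0.63 for Ly86, 0.53 for Ctss and 0.32 for Tlr8. Cx3cr1, the fractalkine receptor of monocytes and macrophages, overlapped, at 165, 126, 137 and 283 in isotype and 214, 281, 371 and 473 in treated mice. Ccr2 was the 1 separated gene of 22 on the monocyte and granulocyte chemokine list (10 higher, 12 lower). Cd86 was the 1 separated of 12 costimulation genes (5 higher, 7 lower). Of 27 Toll-like receptor and NF-kappaB genes, 14 were higher and 13 lower, and 2, among them Tlr8, were separated. Over all genes 5.73% were separated upwards.

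**Figure D3:**
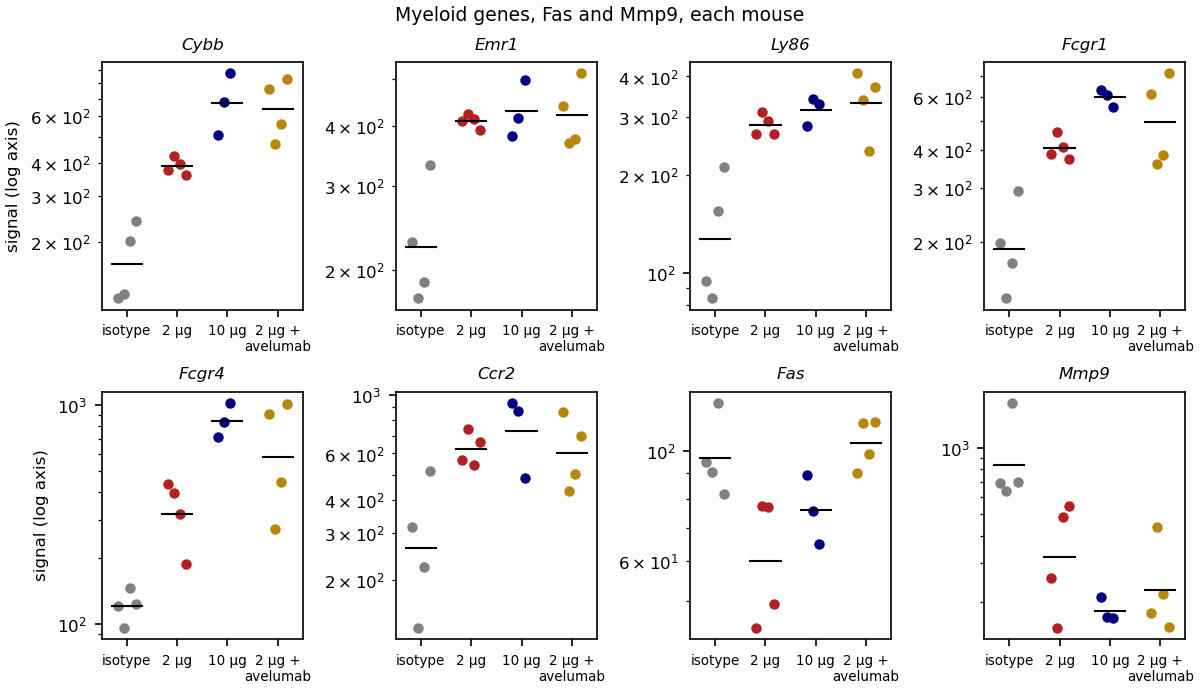
Signal of 6 myeloid genes and of Fas and Mmp9 in single mice on log axes, with groups, points and lines as in the plot of class II genes. For Cybb, Emr1, Ly86 and Fcgr1 the 4 mice at 2 µg lie close together above all isotype mice, and for Fas and Mmp9 they lie below them.

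Further leukocyte genes are given one by one, not as a group. Cxcl16, Klra2, Pik3cg and Il10ra met the rule for named genes, and Itgal, Itga4, Cd48 and Ptprc were picked after their values were seen. Cxcl16, a membrane chemokine, was at 299.7, 205, 352 and 385 in isotype and 462, 536, 577 and 548 in treated mice, a difference of 0.81 ± 0.29. Itgal and Itga4, integrin alpha chains of leukocytes, were at 67.5 to 81 and 17.6 to 58.1 in isotype and at 89.4 to 175 and 67.5 to 92.6 in treated mice. Both were thus separated, with differences of 0.87 ± 0.32 and 1.06 ± 0.37. Cd48, an adhesion molecule of leukocytes, was at 35.8, 12.8, 50.5 and 65 in isotype and 125, 111, 72.1 and 81.2 in treated mice, with a narrow gap between isotype replicate 4 and treated replicate 3. Pik3cg, a leukocyte phosphoinositide kinase, was at 27.6, 11.6, 26.2 and 42.2 in isotype and 69.6, 58.9, 45.1 and 68.9 in treated mice, also with a narrow gap, and differed by 1.25 ± 0.39. Klra2, a receptor of the Ly49 family, whose members have near-identical relatives, was separated by 1.00 ± 0.35. Ptprc, the pan-leukocyte gene for CD45, was at 155, 115, 225 and 205 in isotype and 365, 303, 207 and 279.6 in treated mice. Only treated replicate 3 lay inside the control range, and the difference was 0.73 ± 0.32. Il10ra, an interleukin-10 receptor chain, overlapped by the same mouse, with a difference of 1.32 ± 0.43. Without the 3 libraries of high dim-gene signal the differences were 0.48 for Cxcl16, 0.85 for Cd48, 0.56 for Klra2 and 0.68 for Il10ra.

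Pou2f2 had the smallest p of all genes. It encodes Oct-2, a transcription factor of B cells that is also found in other leukocytes. Its signal was 0, 8.15, 0 and 14 in isotype and 36.1, 41.6, 29.7 and 28.8 in treated mice. The treated mice formed a tight group, and the 2 isotype mice at 0 make the fold depend on the value added before the log. The log2 difference was 3.34 ± 0.66 with 1 added and 1.26 with 16 added, and the limma adjusted p was 0.0657 and 0.0113 in turn. The gene also passed without isotype replicate 2 (limma adjusted p = 0.0205) or isotype replicate 4 (limma adjusted p = 0.00145). Those are the controls with signal above 0, so leaving out either lowers the control mean by construction. Pou2f2 passed in 5 of 17 alternatives, and across them its limma adjusted p ran from 0.00145 to 0.755. It was a dim gene, and in treated replicate 3 it lay below the lower quartile of that library.

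The other B cell genes overlapped between the groups, among them Cd79b, a chain of the B cell receptor complex, at 1.39, 26.7, 0 and 0 in isotype and 49.98, 41.6, 29.7 and 0 in treated mice (2.49 ± 1.78, limma adjusted p = 0.753). Of 15 on the B cell list, 9 were higher and 6 lower, with a median log2 difference of 0.43. Pou2f2 was the 1 gene separated, which is near the share of all genes (5.73%). At an unadjusted p under 0.05 in limma 2 were higher, Pou2f2 and Blnk (6.13% of all genes). The summed signal of the list was 302, 441, 34.7 and 111 in isotype and 282, 309, 497 and 86.3 in treated replicates 1 to 4. Treated replicate 3 and isotype replicate 2 were the highest, both libraries of high dim-gene signal.

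Genes of the interleukin-12 pathway itself were mostly dim and overlapped between the groups. Of 16 measured, 7 were higher and 9 lower, with a median log2 difference of -0.32, 1 gene, Il18, higher at an unadjusted p under 0.05 (6.13% of all genes), and 0 separated. The median was 0.09 over the 5 of them with a mean signal of at least 50, and -0.30 over all 300 genes below that signal. Ifng was at 34.2, 29.1, 0 and 11 in isotype and 1.49, 3.75, 60.5 and 0 in treated mice. The high values are those of isotype replicates 1 and 2 and treated replicate 3, the libraries with high signal in dim genes in general, and the 95% interval of the log2 difference was -4.04 to 1.97. A difference in Ifng on day 6 was not detectable at this precision.

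Several other genes of the pathway were dim. Tbx21, the transcription factor of type 1 lymphocytes, was at 62, 61.6, 0 and 11.8 in isotype and 3.8, 9.73, 64.4 and 3.09 in treated mice, and Stat4 at 16.1, 32.6, 3.06 and 15.6 and 4.96, 33.6, 55.4 and 0. Il12rb2 was listed at 0 in every isotype mouse and in 3 of 4 treated mice, with 0.434 in replicate 2. Il12rb1 was at 78.4, 63.9, 34.7 and 39.9 in isotype and 44.2, 40.3, 96.5 and 43.2 in treated mice, a difference of 0.02 ± 0.35 in which treated replicate 3 alone was high. Il12a and Il12b, the subunits of endogenous interleukin-12, differed by -1.22 ± 0.83 and 0.61 ± 1.02, with 95% intervals of -2.97 to 0.52 and -1.54 to 2.76. Il18, a cytokine that acts with interleukin-12, was brighter, at 118, 109, 103 and 139.6 in isotype and 193, 160.5, 181 and 133 in treated mice. Only treated replicate 4 lay in the control range, and the difference was 0.50 ± 0.18 (limma adjusted p = 0.375). Its receptor chains Il18r1 and Il18rap differed by -0.26 ± 0.49 and 0.23 ± 0.17.

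T cell and NK cell genes showed no common direction. Of 24 T cell genes 12 were higher and 12 lower (median -0.03), and of 22 NK cell genes 12 were higher and 9 lower (median 0.04). The summed signal of the T cell list was 1049, 1021, 259 and 408 in isotype and 467, 524, 1160 and 315 in treated mice, highest in the 3 libraries of high dim-gene signal. Gzmb and Prf1, which encode the killing proteins granzyme B and perforin, differed by -0.44 ± 1.00 and -0.25 ± 0.70, and Gzma by 0.16 ± 0.49. Cd8a, Cd4 and Ncr1, markers of CD8+ T cells, CD4+ T cells and NK cells, differed by 1.00 ± 1.36, 0.16 ± 1.43 and -0.12 ± 0.37, and Pdcd1, the gene of PD-1, by -1.19 ± 1.32, all with overlap. Klrk1, the activating receptor NKG2D, was at 3.03, 4.66, 1.84 and 9.48 in isotype and 53.4, 21.7, 6.58 and 19.5 in treated mice. Its order was not that of the libraries of high dim-gene signal, since treated replicate 3 was the lowest treated mouse and the 1 that overlapped. The difference was 2.04 ± 0.66 (limma adjusted p = 0.324). Klrk1 was a dim gene, and with 16 added before the log in place of 1 its difference was 0.89.

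**Figure D4:**
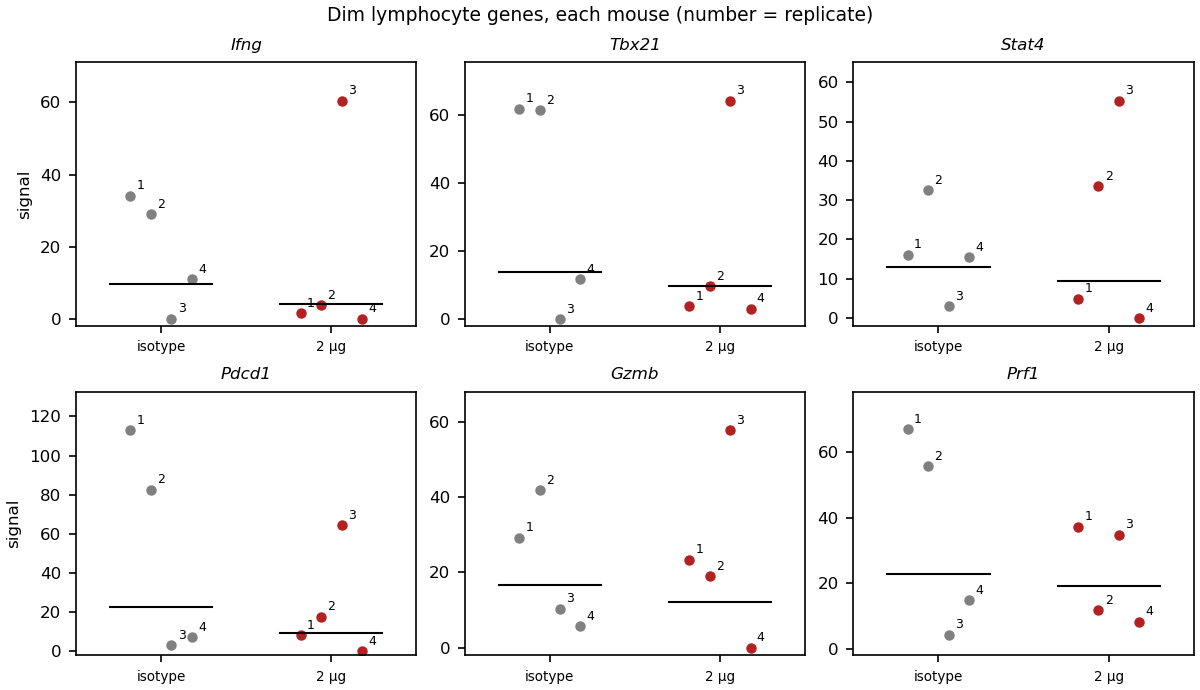
Signal of 6 dim lymphocyte genes in single mice on linear axes, for isotype (n = 4) and 2 µg NHS-muIL12 (n = 4); numbers are replicates and lines the mean of log2(signal + 1) turned back to signal. Treated replicate 3 is the highest treated mouse for Ifng, Tbx21, Stat4, Pdcd1 and Gzmb, and isotype replicates 1 and 2 are the highest controls in all 6 genes.

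Fas and Mmp9 were the 2 genes in which every treated mouse lay below every isotype mouse. Fas, a death receptor, was at 94.8, 90.7, 125 and 81.8 in isotype and 44.2, 77.5, 77.2 and 49.3 in treated mice, with a log2 difference of -0.68 ± 0.20 (limma adjusted p = 0.324). The gap between the highest treated and the lowest isotype mouse was narrow. The matrix protease gene Mmp9, active in neutrophils and macrophages, was at 693, 640.5, 1605 and 699 in isotype and 258, 153, 488 and 546 in treated mice. Isotype replicate 3 stood far above the other controls, and the difference was -1.39 ± 0.57 (limma adjusted p = 0.538). The neutrophil list, which holds Mmp9, had 10 of 15 genes lower, a median log2 difference of -0.52 and 1 gene lower at an unadjusted p under 0.05 (1.73% of all genes). The median was -0.11 over its 6 bright genes (mean signal 50 or more), and -0.30 over all dimmer genes tested. The neutrophil marker S100a8 was at 873, 1381, 755 and 698 in isotype and 833, 562, 891 and 326 in treated mice, with overlap.

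Genes of vessels were lower in 16 of 18 cases by small amounts, with a median log2 difference of -0.35, 0 past the test, 2 lower at an unadjusted p under 0.05 and 0 separated. Over all genes 382 of 750 were lower, 1.73% at that p, and 0.267% were separated downwards. Those 2 were Angpt2 and Vegfa. Angpt2, an angiopoietin made by activated endothelium, was at 213, 260.4, 444 and 185 in isotype and 163, 149, 229 and 129.5 in treated mice. Its difference was -0.66 ± 0.27, and treated replicate 3 alone overlapped the controls. Vegfa, the main vascular growth factor, was at 1242, 1316, 1693 and 1140.5 in isotype and 946, 1073, 1235 and 877 in treated mice, with the same mouse in the control range and a difference of -0.38 ± 0.16. Pecam1, Kdr and Cdh5, the defining markers of endothelium, differed by -0.06, 0.18 and -0.37, all with overlap. Col4a1, a basement membrane collagen, differed by -0.71 ± 0.32 and Itgb3, an integrin beta chain, by -0.95 ± 0.38, both with overlap. Trp53, Atg12, Mavs and Ikbkg, of the stress, autophagy and innate signalling pathways, had differences between -0.55 and -0.31 and unadjusted p values between 0.0125 and 0.0385. Epsti1, an interferon-induced gene, was listed at 0 in all 4 treated mice and at 7.95, 4.66, 0 and 0.344 in isotype.

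**Figure D5:**
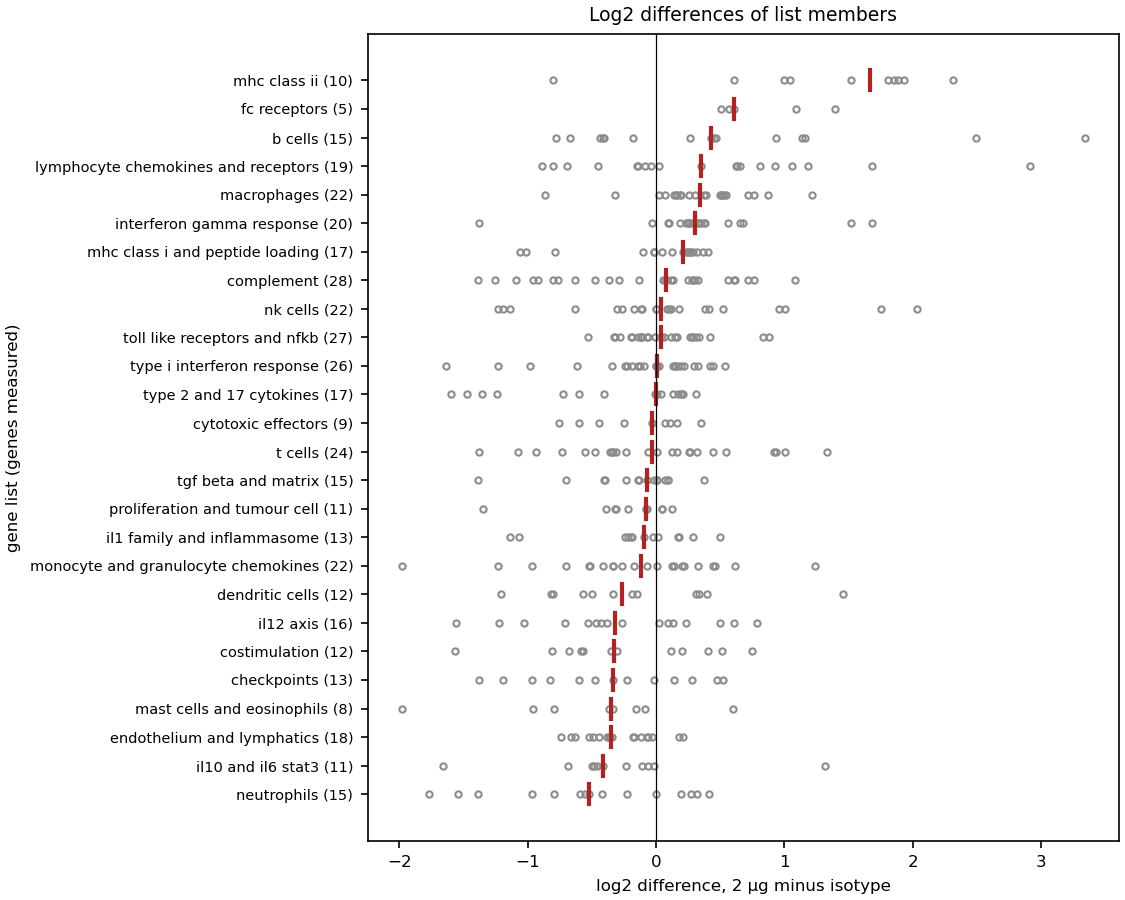
Each row is 1 of 26 gene lists, with the number of genes measured; open circles are the log2 differences of single genes between 2 µg NHS-muIL12 (n = 4) and isotype (n = 4), and red bars their medians. Class II genes lie furthest to the right with a median of 1.66, and neutrophil genes furthest to the left with -0.52, though among bright genes (mean signal 50 or more) vessel genes were at -0.26 and neutrophil genes at -0.11; lists share some genes, and no list was tested.

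The lower dose was set beside the higher one to give the signal of each group of genes at both doses. In the direct comparison of 10 µg (n = 3) with 2 µg (n = 4), 0 of 750 genes (0%) passed limma, with 87 higher and 16 lower at 10 µg at an unadjusted p under 0.05. Both doses share the isotype controls, so their differences from isotype are given only side by side. Of the 43 genes above, 22 had all 10 µg mice above all 2 µg mice, against 116 of the 750 genes. Class II genes were among them. Cd74 was at 7097, 8934 and 9812 at 10 µg, above every 2 µg mouse, with a log2 difference between doses of 1.72 ± 0.54 (limma adjusted p = 0.134). Cxcl9 was at 975, 1434 and 1069 at 10 µg, 2.37 ± 0.57 above 2 µg, and Gbp5 at 437, 771 and 831, 2.07 ± 0.44 above 2 µg, each with a limma adjusted p of 0.101.

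Some myeloid genes had overlapping values at both doses. Emr1 was at 381, 415 and 499 at 10 µg, inside and around the range of the 2 µg mice, with a log2 difference between doses of 0.07 ± 0.31. Ly86 was at 281, 341 and 328 at 10 µg and differed by 0.16 ± 0.39, and Ccr2 was at 931, 866 and 484 and differed by 0.23 ± 0.49. The 95% intervals of these 3 differences were -0.58 to 0.72, -0.67 to 0.98 and -0.8 to 1.25, which still allow a further change at the higher dose. Pou2f2 was at 25.2, 17.8 and 29.9 at 10 µg, not above the 2 µg mice. Cx3cr1 was at 107, 156 and 169 at 10 µg, where all 3 mice lay below all 2 µg mice (-1.17 ± 0.43). Gpr183, a receptor that guides lymphocytes and dendritic cells, was at 37.6, 36.8 and 36.6 at 10 µg against 70.8, 66.8, 103 and 97.6 at 2 µg, a difference of -1.14 ± 0.26 (limma adjusted p = 0.101). At 10 µg the signal of Mmp9 was 211, 170.5 and 169.

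Adding avelumab to the same 2 µg dose gave 2 genes of 750 (0.267%) past the test in limma, Itga6 and Tpsab1, both lower with avelumab. Itga6, the alpha chain of a laminin receptor, was at 171, 222, 205 and 201 with avelumab and 339.8, 296, 349 and 408 without. The groups did not overlap, and the log2 difference was -0.79 ± 0.15 (limma adjusted p = 0.0327). Tpsab1, a tryptase of mast cells, was at 4.07, 3.97, 1.1 and 5.81 with avelumab and 13, 25, 65.6 and 36 without, a difference of -2.82 ± 0.57 (limma adjusted p = 0.0447) in a dim gene whose highest 2 µg value belongs to the library of high dim-gene signal. Neither call held without that library, treated replicate 3, or without treated replicate 4, or without replicate 1, 3 or 4 of the mice with avelumab. Against isotype, 2 µg alone differed by 0.18 ± 0.15 for Itga6 and -0.08 ± 0.57 for Tpsab1.

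Class II genes were not separated between 2 µg with and without avelumab. Cd74 was at 8311, 3019, 4317 and 7642 with avelumab, where replicate 2 lay inside the range of 2 µg alone, and the log2 difference was 1.05 ± 0.50 (limma adjusted p = 0.423). H2-Aa was at 5347, 1545, 3263 and 4935 with avelumab, a difference of 1.30 ± 0.55 with replicate 2 again the lowest. Fas was at 90.1, 114, 98.6 and 114 with avelumab, where all 4 mice lay above the 4 mice of 2 µg alone, and the difference was 0.77 ± 0.20 (limma adjusted p = 0.209). Of the 43 genes, 5 had every mouse with avelumab above every mouse with 2 µg alone, against 31 of all 750 genes.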

How the data were processed

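NanoString values of EMT-6 tumours were analysed from 1 table of 770 genes and 22 libraries. Per the labels a standard NanoString protocol was used on total RNA. The deposited values are linear signal that stops at 0 and lies on equally spaced steps in each library, which is how background-subtracted, scaled counts look. Which software, background and scaling the authors used is not given in the sources used here. Depth and raw counts were not given, so precision was read from the spread between mice.

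Signal was turned to log2(signal + 1) and tested in R 4.3.3 with limma 3.58.1 (lmFit and eBayes, 6 group means, 16 residual degrees of freedom, two-sided), with Benjamini-Hochberg adjustment over 750 genes and a threshold of 0.05. Values after ± are standard errors of a log2 difference, and intervals are 95%. The fit was tested on simulated data with independent normal noise for each gene. These had no floor of signal and no differences between libraries, so the simulation does not cover those features. Separated means that every treated mouse lay above, or every one below, all isotype mice. Named genes are those past the threshold, the 15 higher and 10 lower genes of smallest p, up to 3 of smallest p in each of 26 lists, a chosen set of interleukin-12 and interferon genes and 5 of smallest p in each further comparison. Values of some of these genes are not reported here. Some separated genes and defining markers were named after their values were seen. The groups, genes and lists were chosen with earlier results of these data known. Lists were not tested. Of the gene names, 754 matched current symbols, 2 by letter case, 8 as synonyms and 6 not at all. Alternatives changed the added value, the genes tested, the scaling, the weights, the block and the mice included. The libraries of high dim-gene signal, left out together in 1 alternative, are isotype replicates 1 and 2, 2 µg replicate 3 and 10 µg replicate 3, whose lower quartile was 33.3. Replicate numbers were not used to pair mice, since no pairing is given in the sources used here. Same-numbered isotype and treated libraries deviated from their group means with correlations of -0.40, 0.13, -0.83 and 0.32. Such correlations also reflect the dim-gene signal of the libraries, so they cannot show whether same-numbered libraries were handled together.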

Additional observations from a re-analysis of the deposited data

Results flagged for a closer look

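Among 9 of the named genes 1 mouse stood apart from the other 3 of its group by Dixon's ratio at the 95% level. Chance gives about 1 such group in 20, and 9 of 170 groups searched (5.29%) were found. Treated replicate 1 was high for Irf1 (1262 against 882 to 931). Treated replicate 3 was high for Tlr8 (138 against 115 to 117) and Il12rb1 (96.5 against 40.3 to 44.2), and treated replicate 2 for Il12rb2 (0.434 against 0 in the others). Isotype replicate 4 was low for Cd274 (129 against 206 to 225) and Itgb3 (49.1 against 151 to 175). Isotype replicate 3 was high for Mmp9 (1605 against 640.5 to 699), and isotype replicate 1 was at 0 for Il12a against 5.67 to 6.99 in the others. Treated replicate 4 was at 0 for Cd79b against 29.7 to 49.98 in the others. The causes were not tested.

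For 4 genes, a second group treated with NHS-muIL12 was flagged beside 2 µg alone, 2 by the test and 2 by direction only. Itga6 was lower with added avelumab by a log2 difference of -0.79 (limma adjusted p = 0.0327), and Tpsab1 by -2.82 (limma adjusted p = 0.0447). For S100a8 every 2 µg mouse lay below the isotype mean, treated replicate 3 only just, and every 10 µg mouse above it. Its log2 difference of 10 µg from 2 µg was 0.93. For Gpr183 the opposite held, with a difference of -1.14. Both genes overlapped between 2 µg and isotype mice. Neither passed limma for 10 µg against 2 µg in the main fit, and the contrast of directions was not tested for these 2 genes.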

How the results depend on the processing

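No gene passed limma for 2 µg against isotype under median or housekeeping centring, quantile normalization, the bright genes alone, a fit of the 8 libraries alone or without the libraries of high dim-gene signal. With 16 added, or with the number of genes at 0 as a covariate, 1 gene passed, Pou2f2. Sample weights, which were highest for treated replicate 2 (4.26), gave 90 genes here, 63 for 10 µg against 2 µg and 50 for avelumab added to 2 µg. Leaving out 1 mouse gave 0 to 1 genes, and 1, Pou2f2, without isotype replicate 2 or 4. For 10 µg against 2 µg 4 genes passed among the bright genes alone (Cxcl9, Gbp5, F2rl1 and Gpr183). The 2 calls with avelumab became 1, Itga6, with 16 added or among bright genes, 0 without the libraries of high dim-gene signal, and 0 to 1 with 1 mouse left out. After median centring the 2 were Tpsab1 and Elk1, and after quantile normalization Itga6 and Klra5. With the replicate block, for which the sources used here give no basis, these calls fell from 2 to 0, and 0 genes passed in the other comparisons. The genes separated between 2 µg and isotype numbered 45, 23 after median centring, 151 without the libraries of high dim-gene signal and 52 to 89 with 1 mouse left out, as fewer mice separate more easily. The causes of these changes were otherwise not tested.

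Of 84 named genes, 65 kept the sign of their log2 difference under every alternative run, among them Cd74, H2-Aa, H2-Ab1, H2-Eb1, Cxcl9, Cybb, Emr1, Fas and Mmp9, and 19, none with an unadjusted p under 0.05, changed it at least once. With 16 added the turned differences were 0.085 for Stat4, 0.032 for Gzmb and 0.014 for Nos2. With median centring it was -0.033 for Il12rb1, and with quantile normalization they were -0.026 for Il12rb2, 0.12 for Stat4, 0.27 for Gzmb, -0.0803 for Arg1, 0.72 for Nos2 and 0.26 for Tpsab1. With sample weights they were -1.03 for Il12b, -0.51 for Il12rb1, -0.10 for Il18rap, 0.066 for Stat4, -0.40 for Cd4 and -0.042 for Itga6, and with the covariate -0.00744 for Il12rb1 and -0.093 for Cd4. Without the libraries of high dim-gene signal they were -0.21 for Cd68, -0.29 for Csf1r, 0.74 for Tbx21, -0.71 for Gzma, 0.85 for Prf1, 0.25 for Ncr1 and -0.25 for Arg1. With 1 mouse left out the ranges were -1.56 to 0.035 for H2-Ob, -0.036 to 0.31 for Cd68, -0.054 to 0.46 for Csf1r, -0.71 to 1.26 for Il12b, -0.27 to 0.22 for Il12rb1, -0.69 to 0.066 for Il18r1, -1.25 to 0.69 for Stat4, -1.77 to 0.22 for Tbx21, -0.23 to 0.58 for Gzma, -1.17 to 0.79 for Gzmb, -0.97 to 0.25 for Prf1, -0.98 to 1.35 for Cd4, -0.46 to 0.11 for Ncr1, -0.13 to 0.20 for Arg1, -0.44 to 0.17 for Nos2 and -0.45 to 0.29 for Tpsab1. The lower quartile of signal ran from 3.06 to 50.2 between the 8 libraries, which limits what can be said of dim lymphocyte genes.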
